A study of Homo sapiens with 12 samples.

Results

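Glycolysis, gluconeogenesis and hexose transport were followed through 39 genes chosen by name, of 57500 genes with read counts in HepG2 cells, a human hepatocellular carcinoma line. The members were 19 glycolytic enzymes, 5 glucose and lactate transporters, 4 pyruvate dehydrogenase kinases, 4 PFKFB enzymes, and 7 genes of gluconeogenesis and glucose 6-phosphate transport. All 39 were found by matching the Ensembl identifiers to GENCODE 29 symbols, under which G6PC1 still has its older name G6PC. RNA was sequenced from unmodified cells (WT), cells with TST silenced by a purchased shRNA plasmid (shTST) and cells overexpressing TST (overTST), with 4 libraries in each group. TST is thiosulfate sulfurtransferase, a mitochondrial enzyme that turns cyanide into thiocyanate, and the study asked how cyanide made by the cells themselves bears on their energy metabolism. The TST of overTST cells was a codon-optimized sequence behind a CMV promoter in a lentiviral vector with blasticidin resistance. By the study's methods the plasmids of both lines were packaged in lentivirus, and transduced cells were selected with blasticidin. These steps are not described for WT. The 3 groups were grown in low-glucose medium and held for 24 h in normal medium with 400 µM glycine. By their labels the 12 libraries hold no cells with an empty vector or a control shRNA, so that silencing or overexpression and the making of each line cannot be told apart, and it is not stated whether a line is 1 clone or a pool. In its general account of statistics the study counts work done on separate days as biological replicates. The labels do not say whether the 4 libraries of a group came from separate cultures, and the p-values then measure only the spread between these libraries, which may be technical.

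Glucose enters cells through carriers of the SLC2A (GLUT) family, is trapped as glucose 6-phosphate by hexokinase, and is split in glycolysis to pyruvate, which lactate dehydrogenase reduces to lactate for export by the monocarboxylate carriers of the SLC16A family. PFKFB enzymes set the level of fructose 2,6-bisphosphate, the main activator of phosphofructokinase, and pyruvate dehydrogenase kinases keep pyruvate out of mitochondrial oxidation. Liver also runs the route in reverse, through pyruvate carboxylase, phosphoenolpyruvate carboxykinase, fructose 1,6-bisphosphatase and glucose 6-phosphatase, and hepatoma cells commonly swap liver isoenzymes for those of growing tissue.

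The libraries summed to 28866175 to 45120508 counts for WT, 27527854 to 33865386 for shTST and 22911380 to 27414142 for overTST. Transcripts of the mitochondrial genome made up 6.91% to 12%, 6.84% to 8.65% and 10.8% to 11.7% of them. Levels are given as CPM, the counts scaled to a common library size after normalization. TST itself had 47.6, 47.9, 52.6 and 48.8 CPM in WT, 32.8, 33.8, 36.8 and 33.8 in shTST, and 51.6, 55.3, 60.9 and 61.4 in overTST. Every shTST library was below every WT library (log2 fold change −0.52, SE 0.055, adjusted p = 3.2e-06, by the quasi-likelihood test of edgeR, adjusted after Benjamini and Hochberg, as for every adjusted p that follows). In overTST it was higher than in WT (log2 fold change 0.24, SE 0.062, adjusted p = 0.00384), although the groups overlapped and reads of a codon-optimized sequence need not be counted as TST. That second call was lost after removal of the trend with gene length (0.10, adjusted p = 0.201). All 12 hepatocyte markers were above 1 CPM in the line, with summed levels of 27711 to 31153 CPM in WT, 28837 to 33459 in shTST and 25738 to 30845 in overTST. Of 7 fibroblast or kidney cell markers 5 stayed under 1 CPM in every library, with LUM and THY1 at 0, and the list summed to 21.8 to 25.5 CPM in WT, 16.9 to 19.6 in shTST and 15.8 to 17.7 in overTST. The others were PDGFRB, with 373 to 1076 read counts per library, and COL1A1, with 19 to 70. Against WT, 1 gene of this list was called lower in each line. Of 7 blood or endothelial markers 5 stayed under 1 CPM, with HBB at 0, and that list summed to 3.92 to 4.84, 3.57 to 3.99 and 4.80 to 6.34 CPM. The others were PECAM1, with 42 to 109 read counts per library, and CD68, with 27 to 72. Of that list 0 genes were called in shTST, and 1 was higher and 1 lower in overTST. In bulk RNA fewer cells in a given state and less RNA per cell cannot be told apart.

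The members together took 1.71% to 1.81% of all counts in WT, 1.54% to 1.68% in shTST and 1.75% to 1.88% in overTST, so the shTST libraries were below both other groups. These are shares of raw totals and mostly reflect the most abundant members. Of the 39, 36 passed the filter on low counts in each comparison. The other 3 were close to absent. LDHB, the heart-type lactate dehydrogenase, had 0 to 2 read counts in every library, and PDK4, a pyruvate dehydrogenase kinase induced by fasting, had 0 or 1. FBP1, the liver fructose 1,6-bisphosphatase of gluconeogenesis, had 3 to 18 read counts. A count of 0 allows up to 0.0665 to 0.131 CPM in these libraries, for counting error only.

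Between genes, levels were compared per kilobase of exon, using all annotated exons of a gene, which lowers the value of genes with many transcripts. In WT the highest members were GAPDH, the dehydrogenase at the middle of glycolysis, at 1078 ± 47.9 CPM per kilobase (SD, n = 4), and ENO1, the common enolase, at 836 ± 44.1. ALDOA, the muscle-type aldolase, followed at 408 ± 25.1, then LDHA, the lactate dehydrogenase of glycolytic tissues, at 258 ± 21.1, TPI1, triosephosphate isomerase, at 225 ± 14.7, and SLC2A1 (GLUT1), the glucose carrier of most cultured and growing cells, at 206 ± 27.7. In that order LDHA and TPI1, and TPI1 and SLC2A1, were closer than their SDs added together. At the other end, HK1, the hexokinase of most tissues, had 0.321 ± 0.0715, PCK1, the cytosolic phosphoenolpyruvate carboxykinase, 0.342 ± 0.0472, and G6PC, the liver glucose 6-phosphatase, 0.486 ± 0.0321. PC (pyruvate carboxylase) reached 17.9 ± 0.846 and G6PC3, the glucose 6-phosphatase of most tissues, 33.0 ± 1.93.

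**Figure D1:**
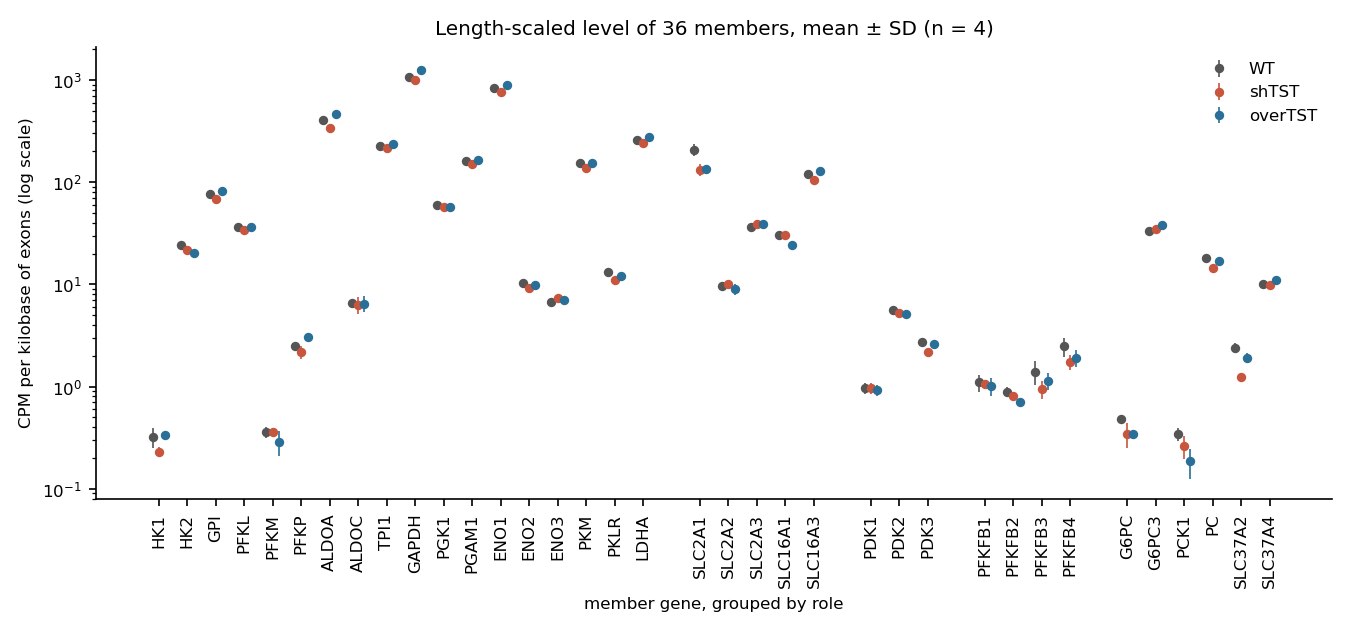
Mean level of the 36 tested members in CPM per kilobase of exon on a log scale, with SD over 4 libraries, for WT (grey), shTST (red) and overTST (blue), grouped by role. GAPDH, ENO1 and ALDOA stand highest in each group, and PCK1, HK1, PFKM and G6PC lowest.

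In several families 1 isoenzyme held most of the length-scaled reads in WT. HK2, the hexokinase of growing cells, held 98.7% of the summed reads of HK1 and HK2. HKDC1, a hexokinase-like gene outside the members, was left out of that sum, with 45.1 CPM in WT beside 141 to 167 for HK2. PFKL, the liver phosphofructokinase, held 92.7% of PFKL, PFKM and PFKP, and ALDOA 98.4% of ALDOA and ALDOC. PKM held 92.2% of the pyruvate kinase reads against 7.84% for PKLR, the liver and red cell gene. Without the scaling by length these shares were 97.5% and 2.53%. G6PC3 held 98.5% of the glucose 6-phosphatase reads. The dominant member of these families was the same in all 3 groups. Among the PFKFB genes none held most of the reads, with PFKFB4 highest at 42.1% in WT.

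In shTST cells 13 of 36 tested members were called lower than in WT and 0 higher. Among the called members the largest differences were at SLC37A2, a glucose 6-phosphate exchanger of the endoplasmic reticulum, SLC2A1, PFKFB3 and PFKFB4, followed by PDK3, PC, ALDOA and PKLR, while HK1, G6PC and PCK1 had log2 fold changes of −0.50, −0.48 and −0.37 without passing the test. By roles, 6 of 18 tested glycolytic enzymes, 2 of 5 transporters, 1 of 3 pyruvate dehydrogenase kinases, 2 of 4 PFKFB genes and 2 of 6 genes of gluconeogenesis and glucose 6-phosphate transport were lower. The log2 fold change was negative in 30 of 36, with a median of −0.14 against 0.0040 over all 14584 genes tested. Of those genes 16.1% were called, 6.69% higher and 9.4% lower, and of the members 36.1% were called, all lower. Here and in the other comparisons the members were not matched to all genes in level of expression, on which the power to call depends. At an unadjusted p under 0.05, 1 member (SLC2A3) was higher, and DESeq2 called 0 higher and 13 lower. Without WT replicate 4 or without shTST replicate 4, 8 members were lower. Of all calls in this comparison 41.6% were higher, and 52.7% were with upper-quartile scaling, under which 12 members were lower and 0 higher.

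In overTST cells the members moved in both directions, with 4 of 36 called higher and 7 lower. PFKP, ALDOA and GAPDH, glycolytic enzymes, and G6PC3 were higher, and PCK1, SLC2A1, PFKFB4, SLC37A2, PFKFB2, SLC16A1 and HK2 lower. That made 3 glycolytic enzymes higher and 1 lower of 18, 2 of 5 transporters lower, 0 of 3 pyruvate dehydrogenase kinases called, 2 of 4 PFKFB genes lower, and 1 gene higher and 2 lower of 6 in gluconeogenesis and glucose 6-phosphate transport. DESeq2 called none of these 3 kinases, and none had an unadjusted p under 0.05. The members' median log2 fold change was −0.036 against 0.0019 over 14421 genes. Of all genes tested 33.9% were called, 15.7% higher and 18.2% lower, and the members' 30.6% was near that background. Fold changes in this comparison ran against gene length over all genes (Spearman's rho −0.404), which for shTST against WT was −0.09. With the trend removed, 11 members were higher and 7 lower, while over all genes 4105 of 14421 were called. The members' share of calls was then above that background, in which 49.9% of the calls were higher. The members were not matched to all genes in length.

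**Figure D2:**
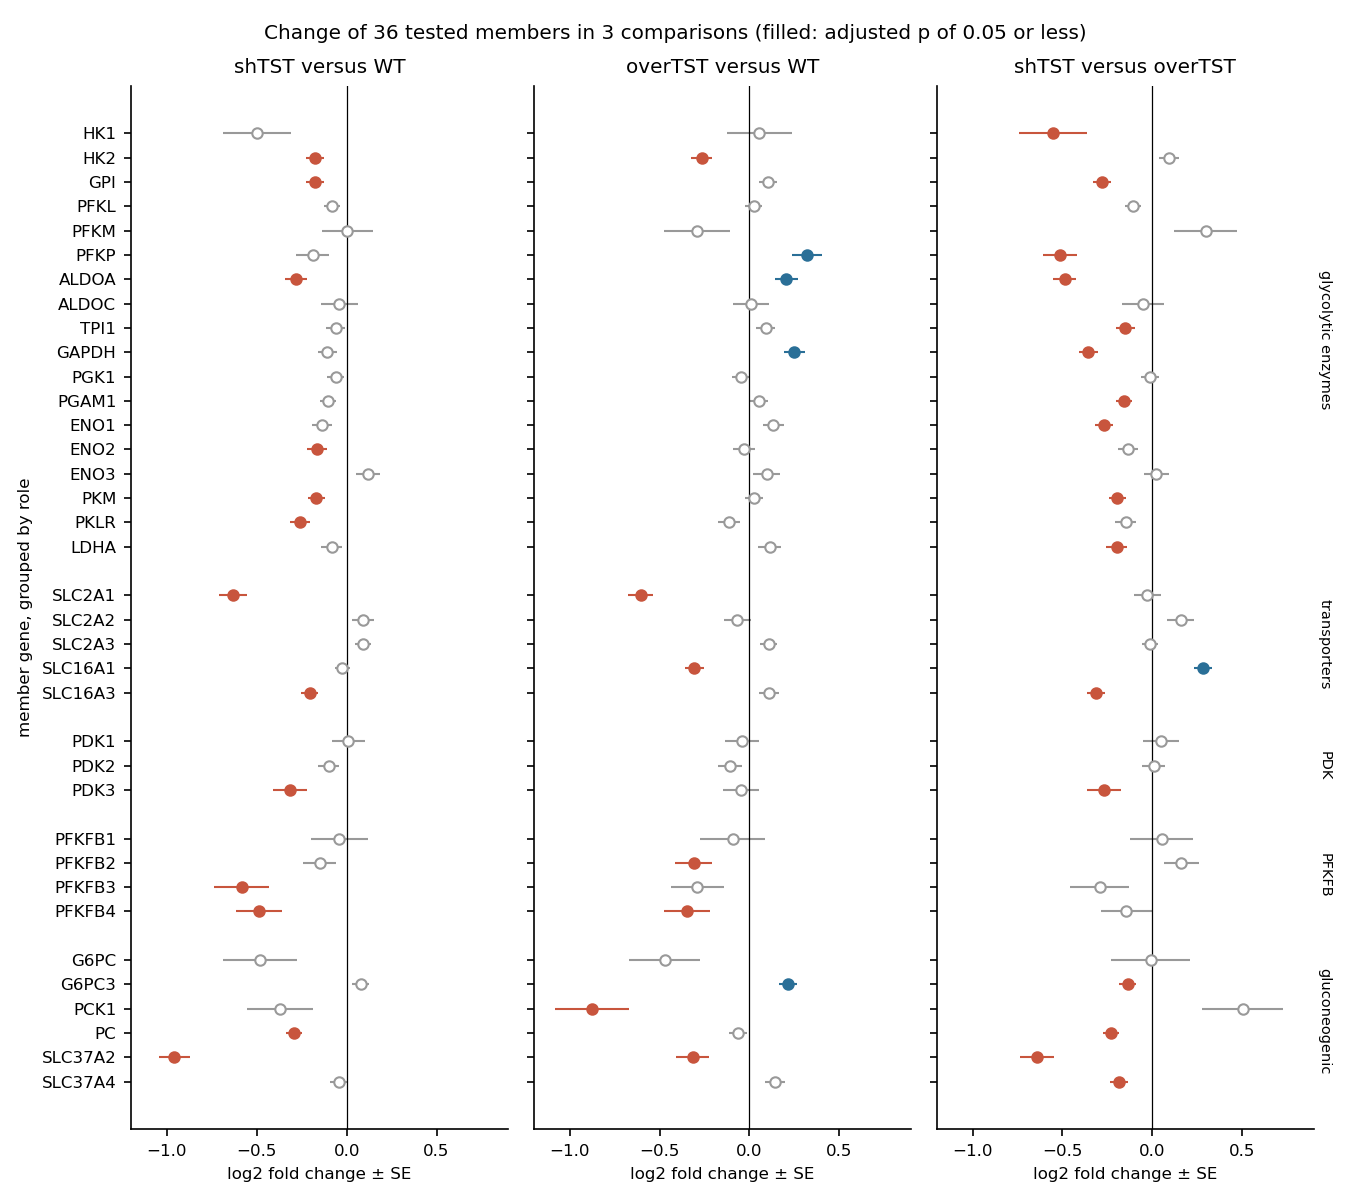
Log2 fold change with its standard error for the 36 tested members, grouped by role, in shTST against WT (left), overTST against WT (middle) and shTST against overTST (right). Filled points passed an adjusted p of 0.05, red for lower and blue for higher, with 0 blue and 13 red points on the left, 4 and 7 in the middle, and 1 and 16 on the right.

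Both comparisons used the same WT libraries, so the lines were also set against each other directly, in 1 fit of all 12 libraries. Direct differences are log2 values of shTST minus overTST. There 16 members were lower in shTST than in overTST and 1 was higher, where of 14883 genes 33% were called, 16.9% higher and 16.1% lower. The 16 included 10 of 18 tested glycolytic enzymes (HK1, GPI, PFKP, ALDOA, TPI1, GAPDH, PGAM1, ENO1, PKM and LDHA), 1 of 5 transporters (SLC16A3), PDK3, and 4 of 6 genes of gluconeogenesis and glucose 6-phosphate transport (G6PC3, PC, SLC37A2 and SLC37A4). The members' median was −0.14 against 0.00084 over all genes. The trend with gene length had a rho of 0.357 here, and 14 members were lower and 2 higher once it was removed. With it removed, 4142 of 14883 genes were called. SLC2A1, HK2 and the PFKFB genes were not among the 17. The HK1 call was lost under 4 of 18 alternatives, LDHA under 2, TPI1 under 7, PDK3 under 8 and G6PC3 under 6, each time with the same sign. Among them, single libraries decided HK1 (shTST replicate 4, overTST replicates 2 and 4), LDHA (replicate 4 of either line), TPI1 (shTST replicates 2 and 4, overTST replicates 2, 3 and 4), PDK3 (shTST replicates 1 and 4, overTST replicates 1, 3 and 4) and G6PC3 (shTST replicates 1, 2 and 4, overTST replicates 2 and 4), with adjusted p of 0.0526 to 0.145 when 1 was left out.

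Of the transporters, SLC2A1 (1:42925375-42959173, minus strand, GRCh38) changed most. It had 927, 1207, 909.8 and 1025 CPM in WT, 598, 763, 573 and 687 in shTST, and 683, 672, 676 and 602 in overTST. Every library of both lines was below every WT library. It fell in shTST (log2 fold change −0.63, SE 0.08, adjusted p = 2.84e-05) and in overTST (log2 fold change −0.61, SE 0.068, adjusted p = 6.53e-07), and the direct difference was −0.027 (SE 0.077, adjusted p = 0.83). SLC2A3 (GLUT3), a high-affinity glucose carrier, had log2 fold changes of 0.092 in shTST and 0.11 in overTST (adjusted p = 0.154 and 0.0971), and SLC2A2 (GLUT2), the liver carrier, 0.09 and −0.068 (0.337 and 0.518). Other SLC2A genes, such as SLC2A8 with 2335 to 3588 read counts in WT, are not members and were left out of the shares that follow. As a share of the length-scaled reads of SLC2A1, SLC2A2 and SLC2A3, SLC2A1 went from 81.6% in WT to 72.8% in shTST and 73.6% in overTST. SLC2A3 went from 14.6% to 21.6% and 21.5%. The SLC2A1 ranges over libraries were 80.2% to 83.8% in WT, 70.7% to 75.3% in shTST and 72.3% to 74.6% in overTST, so both lines lay below WT.

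SLC16A3 (MCT4), which exports lactate from glycolytic cells, had 1024, 1067, 1085 and 1167 CPM in WT, 944, 918, 958 and 940.2 in shTST, and 1097, 1139, 1162 and 1210.2 in overTST. All shTST libraries were below all others (log2 fold change −0.21, SE 0.048, adjusted p = 0.00539 against WT, and −0.31, adjusted p = 2.98e-05, against overTST). In overTST its log2 fold change was 0.11 (adjusted p = 0.127). SLC16A1 (MCT1), which carries lactate in either direction, had 164, 159.9, 168 and 161 CPM in WT, 160.0, 162, 155 and 164 in shTST, and 142, 126, 134 and 117 in overTST. Here the overTST libraries were below all others (log2 fold change −0.31, SE 0.054, adjusted p = 0.00012 against WT), and the direct difference was 0.28 (adjusted p = 0.000117). In shTST its log2 fold change was −0.024 (adjusted p = 0.748). SLC16A3 held 79.7% of the length-scaled reads of both carriers in WT, 77.6% in shTST and 83.9% in overTST.

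HK2, which traps glucose as glucose 6-phosphate, was lower in both lines. Its levels were 143, 167, 141 and 144 CPM in WT, 138, 126, 131 and 132 in shTST, and 117, 111, 126 and 133 in overTST. No library of either line reached the WT range. The differences were small (log2 fold change −0.17, SE 0.051, adjusted p = 0.0219 in shTST and log2 fold change −0.27, SE 0.06, adjusted p = 0.00127 in overTST), and the direct difference was 0.092 (adjusted p = 0.228). The shTST call rested on WT replicate 2 and shTST replicates 2 and 4, without which the log2 fold changes were −0.12, −0.15 and −0.17 with adjusted p = 0.0819, 0.0791 and 0.0647. HK1 was at 1.17 to 2.44 CPM, with log2 fold changes of −0.50 in shTST and 0.054 in overTST (adjusted p = 0.0762 and 0.847). It was lower in shTST than in overTST (log2 fold change −0.55, SE 0.19, adjusted p = 0.0254).

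To show the start regions of the first transport and phosphorylation steps, both of which were lower in both lines, RefSeq promoter windows (GRCh38.p14) of 250 bases before each start were searched for ACGTG on either strand, the core bound by hypoxia-inducible factors that is also part of the CACGTG box, and for CCAAT and TATAAA on either strand. Of 35116 windows, 18.5% held ACGTG, 32% CCAAT and 10.7% TATAAA. Of 70 windows of 34 members, 25 held ACGTG, 23 CCAAT and 6 TATAAA. HK2 had 2 starts and SLC2A1 and PFKFB4 1 each. HK2 is shown where its windows lie outside its GENCODE 29 exons, before the first start (chr2:74833877-74833980, plus strand) and before the second (chr2:74834920-74835169, plus strand). The window of SLC2A1 lies inside GENCODE 29 exons of the gene, and 30 bases of it are shown (chr1:42958890-42958919, minus strand). Capitals mark the matches.
HK2 first start: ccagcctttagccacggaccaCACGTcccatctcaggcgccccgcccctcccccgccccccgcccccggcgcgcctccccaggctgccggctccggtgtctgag
HK2 second start: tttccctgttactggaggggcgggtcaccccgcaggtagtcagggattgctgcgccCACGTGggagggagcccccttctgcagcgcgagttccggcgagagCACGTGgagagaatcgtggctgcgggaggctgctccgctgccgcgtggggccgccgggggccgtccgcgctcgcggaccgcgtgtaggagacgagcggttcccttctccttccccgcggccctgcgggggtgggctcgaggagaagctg
SLC2A1: ccagCCAATggccggggtccTATAAAcgct
The second start of HK2 had 2 copies of CACGTG, which reads as ACGTG on both strands, and the first had 1 ACGTG match on the minus strand in the part shown. The whole window of the first start held 2 ACGTG and 2 CCAAT matches, and the CCAAT matches lie in the exonic part not shown. SLC2A1 had 1 CCAAT, 1 TATAAA and no ACGTG in its window, and the window of PFKFB4 held none of the 3 motifs. These matches describe letters only and were not tested against the expression values.

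Along the upper steps of glycolysis, GPI, which turns glucose 6-phosphate into fructose 6-phosphate, had 671, 696, 707 and 741 CPM in WT, 585, 622, 672 and 607 in shTST, and 699, 761, 752 and 763 in overTST. Only shTST replicate 3 entered the WT range from below, while most overTST libraries were above it. GPI fell in shTST (log2 fold change −0.18, SE 0.049, adjusted p = 0.0161) and was lower there than in overTST (−0.28, adjusted p = 0.000128), with 0.10 in overTST (adjusted p = 0.128). The call against WT was lost without WT replicate 4, shTST replicate 1 or shTST replicate 4 (adjusted p = 0.0762, 0.0844 and 0.0699). PFKP, the platelet-type phosphofructokinase, had 12.5, 13.1, 10.9 and 11.8 CPM in WT, 8.82, 12.4, 9.88 and 11.3 in shTST, and 16.0, 15.5, 14.8 and 13.3 in overTST. All overTST libraries were above all others. It rose in overTST (log2 fold change 0.32, SE 0.084, adjusted p = 0.00436) and was lower in shTST than in overTST (−0.51, adjusted p = 0.000173), with −0.19 in shTST (adjusted p = 0.175). PFKL, which makes up most of the phosphofructokinase reads, had log2 fold changes of −0.083 and 0.023 in shTST and overTST (adjusted p = 0.212 and 0.742), and PFKM, the muscle type, 0.0037 and −0.29 (0.991 and 0.228).

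ALDOA was called lower in shTST and higher in overTST. Its levels were 2346, 2418, 2623 and 2664 CPM in WT, 1933, 2001, 2337 and 1989 in shTST, and 2556, 2845, 2919 and 3089 in overTST. The shTST libraries were below every WT library, shTST replicate 3 by the least, and overTST replicate 1 lay within the WT range. ALDOA fell in shTST (log2 fold change −0.28, SE 0.061, adjusted p = 0.00346), rose in overTST (log2 fold change 0.21, SE 0.064, adjusted p = 0.0143) and differed between the lines (−0.49, adjusted p = 5.11e-06). The rise was lost without WT replicate 1, overTST replicate 3 or overTST replicate 4 (adjusted p = 0.0631, 0.0523 and 0.0693). ALDOC, the brain-type aldolase, had log2 fold changes of −0.04 and 0.0099 (adjusted p = 0.831 and 0.95). Of its exonic bases 10.1% are shared with another gene, and how the counting treated strand is not stated in the sources used here.

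In the lower steps, GAPDH, which is often used as a reference transcript, had 3158, 3043, 3274 and 3374 CPM in WT, 2858, 2967, 3151 and 2926 in shTST, and 3534, 3703, 3792 and 3993 in overTST. The overTST libraries were above all others, and shTST overlapped WT. GAPDH rose in overTST (log2 fold change 0.25, SE 0.059, adjusted p = 0.00195), had a log2 fold change of −0.11 in shTST (adjusted p = 0.173) and differed between the lines (−0.36, adjusted p = 1.87e-05). An antisense gene overlaps 14.2% of its exonic bases. PGK1, phosphoglycerate kinase, had log2 fold changes of −0.06 and −0.046 (adjusted p = 0.433 and 0.52) and a direct difference of −0.014 (adjusted p = 0.857). TPI1, PGAM1, the phosphoglycerate mutase of most tissues, and ENO1 were not called against WT in either line, with log2 fold changes of −0.061, −0.10 and −0.13 in shTST and 0.089, 0.052 and 0.13 in overTST. ENO1 was called under some alternatives, lower in shTST under 2 of 18, among them DESeq2 (−0.13, adjusted p = 0.0373), and higher in overTST under 4 of 18, among them DESeq2 (0.14, adjusted p = 0.0169). They were lower in shTST than in overTST, with log2 differences of −0.15, −0.16 and −0.27 (adjusted p = 0.0296, 0.0104 and 0.000318). The TPI1 and PGAM1 differences were lost after removal of the length trend (−0.073 and −0.069, adjusted p = 0.283 and 0.233). ENO2, the neuronal enolase, was called lower in shTST (log2 fold change −0.17, SE 0.054, adjusted p = 0.0392), a call lost under 8 of 18 alternatives, among them upper-quartile scaling (−0.14, adjusted p = 0.0717), and had a log2 fold change of −0.031 in overTST. ENO3, the muscle enolase, had log2 fold changes of 0.12 and 0.097 (adjusted p = 0.227 and 0.348).

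Both pyruvate kinase genes fell in shTST. PKM, of growing tissues, had 1279.5, 1318, 1358 and 1356 CPM in WT, 1105, 1193, 1243 and 1173 in shTST, and 1285, 1324, 1339 and 1373 in overTST, with every shTST library below both other groups (log2 fold change −0.17, SE 0.048, adjusted p = 0.0179). PKLR had 32.6, 34.8, 35.2 and 35.3 CPM in WT, 27.1, 28.2, 30.4 and 29.2 in shTST, and 31.4, 29.4, 33.1 and 31.6 in overTST. Its shTST libraries were below every WT library (log2 fold change −0.26, SE 0.056, adjusted p = 0.00319), and overTST overlapped both. In overTST the values were 0.025 for PKM and −0.11 for PKLR (adjusted p = 0.739 and 0.163), and with the length trend removed they passed the threshold in opposite directions (0.15 and −0.21, adjusted p = 0.0392 and 0.00959). The PKM call in shTST was lost without WT replicate 4, shTST replicate 1 or shTST replicate 4 (adjusted p = 0.0614, 0.0941 and 0.0656). LDHA had a log2 fold change of −0.084 in shTST and 0.11 in overTST (adjusted p = 0.349 and 0.176) and was lower in shTST than in overTST (log2 fold change −0.20, SE 0.059, adjusted p = 0.0117).

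The PFKFB genes were low, between 4.29 and 19.6 CPM for PFKFB2, PFKFB3 and PFKFB4. PFKFB4, an isoenzyme that hypoxia induces in many cells, had 11.9, 13.3, 15.6 and 19.6 CPM in WT, 12.1, 8.52, 12.4 and 9.78 in shTST, and 10.3, 9.52, 13.3 and 13.6 in overTST. The groups overlapped at the low end of WT, and WT replicate 4 stood highest. PFKFB4 was called lower in shTST (log2 fold change −0.49, SE 0.13, adjusted p = 0.0111) and in overTST (log2 fold change −0.35, SE 0.13, adjusted p = 0.0383). Both calls were lost without WT replicate 4 (−0.34 and −0.19, adjusted p = 0.0539 and 0.228) and with DESeq2 (adjusted p = 0.0653 and 0.187), and the second also under 5 other alternatives. PFKFB3, which favours synthesis of fructose 2,6-bisphosphate, had 6.83, 10.8, 6.69 and 6.48 CPM in WT, 4.76, 6.70, 4.29 and 5.06 in shTST, and 6.43, 6.39, 7.41 and 4.72 in overTST. WT replicate 2 stood far above its group. PFKFB3 fell in shTST (log2 fold change −0.58, SE 0.15, adjusted p = 0.0112), a call lost without that library (−0.36, adjusted p = 0.056), and had a log2 fold change of −0.29 in overTST (adjusted p = 0.136). Without WT replicate 2 the overTST value was −0.071, the nearest to 0 of a range that reached −0.38 over the alternatives, and it was called with no filter on low counts (adjusted p = 0.0298). PFKFB2, the heart isoenzyme, had 8.60, 10.4, 8.01 and 9.07 CPM in WT, 8.21, 7.95, 7.72 and 8.74 in shTST, and 7.92, 6.31, 6.94 and 7.55 in overTST, and the overTST libraries were below every WT library. It was called lower in overTST (log2 fold change −0.31, SE 0.10, adjusted p = 0.0229), a call lost under 5 of 18 alternatives, among them removal of the length trend (−0.16, adjusted p = 0.237), and had a log2 fold change of −0.15 in shTST (adjusted p = 0.287). PFKFB1, the liver isoenzyme, was at 1.57 to 2.84 CPM, with −0.041 and −0.092 (adjusted p = 0.896 and 0.732).

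Of the pyruvate dehydrogenase kinases, PDK3 had 8.01, 6.65, 7.34 and 7.59 CPM in WT, 5.69, 6.30, 6.06 and 5.59 in shTST, and 7.18, 6.68, 7.33 and 6.88 in overTST. The shTST libraries were below every other library. PDK3 fell in shTST (log2 fold change −0.31, SE 0.096, adjusted p = 0.0269), had a log2 fold change of −0.048 in overTST (adjusted p = 0.748), and was lower in shTST than in overTST (−0.27, adjusted p = 0.034). Leaving out replicate 1 or 4 of WT (adjusted p = 0.0741 and 0.0729), or replicate 1 or 4 of shTST (0.0792 and 0.0855), ended the call against WT. PDK1, a target of hypoxia-inducible factors, had log2 fold changes of 0.0091 and −0.042 (adjusted p = 0.961 and 0.775). PDK2 had log2 fold changes of −0.099 and −0.11 (0.26 and 0.236), with 38.6% of its exonic bases shared with SAMD14 on the other strand, so that its reads are uncertain.

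The genes of gluconeogenesis did not move as 1 group. PC, which makes oxaloacetate from pyruvate in mitochondria, had 99.4, 107, 111 and 106 CPM in WT, 82.5, 86.8, 89.0 and 87.8 in shTST, and 102, 101, 99.3 and 98.5 in overTST. The shTST libraries were below all others (log2 fold change −0.29, SE 0.046, adjusted p = 0.000215), also against overTST (−0.23, adjusted p = 0.000418), while overTST had a log2 fold change of −0.062 (adjusted p = 0.36). LRFN4 on the other strand overlaps 10.5% of its exonic bases. PCK1 (20:57561080-57568112, plus strand, GRCh38), the textbook control point of gluconeogenesis, had 1.92, 2.46, 2.26 and 2.69 CPM in WT, 1.92, 1.25, 2.33 and 1.67 in shTST, and 0.929, 1.29, 1.01 and 1.84 in overTST, from 25 to 111 read counts. Every overTST library was below every WT library, overTST replicate 4 by the least, and shTST lay across both. PCK1 fell in overTST (log2 fold change −0.87, SE 0.21, adjusted p = 0.00194), had a log2 fold change of −0.37 in shTST (adjusted p = 0.175), and the lines did not pass the test against each other (0.50, adjusted p = 0.0895). G6PC, at 24 to 70 read counts, was lower in every library of both lines than in WT, with log2 fold changes of −0.48 and −0.47, without passing the test (adjusted p = 0.118 and 0.0673). G6PC3 had 159, 143, 143 and 157 CPM in WT, 151, 159, 169 and 155 in shTST, and 166, 170.5, 168 and 183 in overTST. Its overTST libraries were above every WT library. G6PC3 rose in overTST (log2 fold change 0.22, SE 0.052, adjusted p = 0.00225) and had a log2 fold change of 0.078 in shTST (adjusted p = 0.276).

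The exchangers that carry glucose 6-phosphate between cytosol and endoplasmic reticulum differed from each other. SLC37A2 (11:125063067-125090312, plus strand, GRCh38) had 14.2, 17.6, 13.9 and 15.7 CPM in WT, 7.93, 8.32, 7.38 and 8.04 in shTST, and 13.2, 13.5, 10.8 and 11.1 in overTST. The shTST libraries were below all others by a wide margin, and overTST lay between them and WT without touching either. It had the largest decrease of any member in shTST (log2 fold change −0.96, SE 0.086, adjusted p = 4.35e-07), a fold of 0.515. It also fell in overTST (log2 fold change −0.32, SE 0.092, adjusted p = 0.00995), and the lines differed (−0.64, adjusted p = 1.88e-05). Without WT replicate 2 or overTST replicate 3 the overTST call was just lost (−0.24 and −0.26, adjusted p = 0.0512 and 0.0519). SLC37A4, the carrier that feeds glucose 6-phosphatase in liver, had log2 fold changes of −0.043 and 0.14 (adjusted p = 0.6 and 0.0508), the latter called under 9 of 18 alternatives, and was lower in shTST than in overTST (−0.19, adjusted p = 0.0074). SLC37A2 went from 19.2% of the length-scaled reads of both in WT to 11.3% in shTST and 14.8% in overTST.

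In shTST against WT the calls that held under all 18 alternatives were ALDOA, PKLR, SLC2A1, SLC16A3, PC and SLC37A2, and in overTST against WT they were HK2, PFKP, GAPDH, SLC2A1, SLC16A1, G6PC3 and PCK1.

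**Figure D3:**
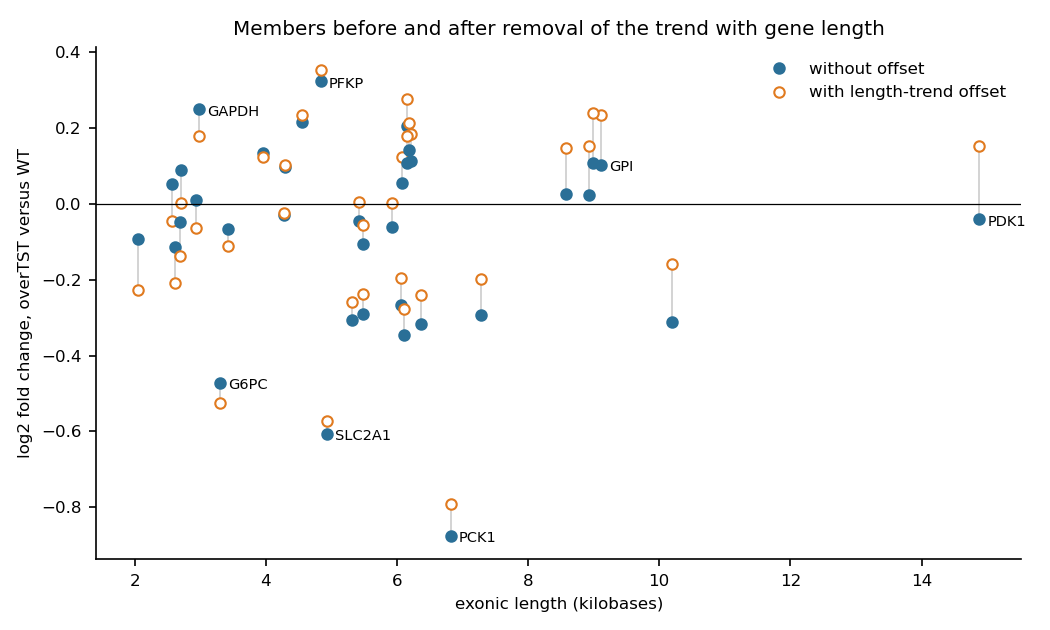
Log2 fold change of the 36 tested members in overTST against WT, plotted against exonic length in kilobases, without (filled blue) and with (open orange) removal of the trend with gene length, which grey lines join. GPI, among the longest, shifts upward and GAPDH, among the shorter, downward, and the count of higher members goes from 4 to 11, while SLC2A1 and PCK1 stay far below 0.

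Removal of the length trend in overTST added GPI, PFKL, PKM, LDHA, SLC2A3, SLC16A3 and SLC37A4 to the higher members, with log2 fold changes of 0.23, 0.15, 0.15, 0.18, 0.18, 0.24 and 0.21. Their exonic lengths were 6159 to 9112 bases, and in this comparison the offset raises long genes relative to shorter ones. The 4 higher without it remained higher. Among lower members it added PKLR and G6PC (−0.52, adjusted p = 0.0483) and took away PFKFB2 and PFKFB4. The origin of the trend was not tested.

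Neighbouring routes of sugar metabolism were counted in the same fits, in which 16.1% of all genes were called in shTST and 33.9% in overTST. Of 22 tested genes of hexose entry and interconversion, 0 were higher and 3 lower in shTST, and 3 higher and 3 lower in overTST, which is 13.6% and 27.3% called. HKDC1, a hexokinase-like enzyme, and GCKR, the glucokinase regulator, fell in shTST (log2 fold changes −0.42 and −0.71, adjusted p = 4.19e-05 and 0.00272). In overTST TIGAR, a fructose 2,6-bisphosphatase, rose (log2 fold change 0.20, adjusted p = 0.0229), and SORD, sorbitol dehydrogenase, and SLC2A13, an inositol carrier, fell (−0.39 and −0.39, adjusted p = 3.71e-05 and 0.0271). Glycogen genes were lower in 6 of 21 in shTST, led by PYGB, the brain glycogen phosphorylase, at a log2 fold change of −0.27, and PGM1, phosphoglucomutase, at −0.20, with 0 higher. In overTST 7 were lower, led by PGM1 (−0.33) and PGM2 (−0.37), and 1 was higher, PHKG2 (0.27), a phosphorylase kinase subunit.

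Of 8 tested genes of the pentose phosphate pathway, 2 were lower and 0 higher in shTST, TKT (transketolase) at a log2 fold change of −0.18 and PGLS at −0.18. In overTST 3 were higher, among them TALDO1 (transaldolase) at a log2 fold change of 0.14 (adjusted p = 0.0212), and 1 was lower, H6PD, at −0.15. Of 14 genes of the redox shuttles and pyruvate entry, 4 were lower and 0 higher in shTST, led by GOT1, the cytosolic aspartate aminotransferase, at −0.41 (adjusted p = 5.01e-06), and PCK2, the mitochondrial counterpart of PCK1, at −0.27 (adjusted p = 0.00033). In overTST MPC1, a subunit of the mitochondrial pyruvate carrier, was higher (0.29), and SLC25A13, an aspartate and glutamate carrier, and ME2, a malic enzyme, were lower (−0.38 and −0.22). The counts of 0 higher in shTST are edgeR's, and DESeq2 also called 0 higher in each of these 4 lists. At an unadjusted p under 0.05 the higher genes numbered 1 in hexose entry, 3 in glycogen metabolism, 0 in the pentose phosphate pathway and 0 in the shuttles. Beside them, hepatocyte markers moved in both directions, 5 higher and 3 lower of 12 in shTST and 3 higher and 2 lower in overTST, with log2 fold changes in shTST and overTST of 0.39 and 0.13 for ALB, −0.33 and 0.16 for TTR, and −0.19 and −0.55 for APOB, the largest change of these 12 in overTST. Their part in the results on the members was not tested.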

How the data were processed

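For 12 libraries the authors deposited raw read counts, 1 whole number for each Ensembl gene, beside its exons and exonic length. The submitters' processing notes name Trimmomatic 0.36, STAR 2.5.2b, featureCounts of Subread 1.5.2 and GRCh38, and how strand and reads with several matches were treated is not given in the sources used here. Groups and replicate numbers came from the labels. Of 57500 identifiers, 56898 had a GENCODE 29 name.

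The 8 libraries of the groups compared entered the fits against WT, and all 12 the direct one, with edgeR 4.0.16 in R 4.3.3: filterByExpr at its defaults, TMM scaling, the quasi-likelihood test and Benjamini-Hochberg adjustment over all genes tested, called at 0.05 or less. SEs were derived from the F statistics, as the size of the log2 fold change over root F. The biological coefficient of variation was 5.85%, 6.41% and 6.02% in shTST against WT, overTST against WT and the direct comparison. The procedure was tested on simulated counts. No 2 libraries of a group agreed within sampling noise (chi-square per gene 3.58 to 35.3 over 18 pairs). By group the values were 5.87 to 35.3 in WT, 4.41 to 8.2 in shTST and 3.58 to 9.64 in overTST, so the largest were in WT. Lists were described by counts and medians, and shares and levels by length carry no test. Genes named as pseudogenes of a member held at most 0.551% of its counts (TPI1).

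The alternatives were DESeq2 1.42.0, upper-quartile and RLE scaling, keeping genes of low count, keeping only those above 1 CPM in 4 libraries, an offset for the lowess trend (span 0.3) with gene length, the replicate number as a block (with and without that offset), the other choice of libraries in the fit, pseudogene counts added, and each library left out. With 1 library left out, the spread was pooled over the rest.

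The members and lists were chosen with earlier results of these data known. All 39 members are accounted for. Values per library are given for TST and for up to 12 called members with the largest change in each comparison with WT, and of each other list the 2 higher and 2 lower genes with the smallest p are named, except for some that are not reported here. Promoter windows were RefSeq's, with entries for 34 members and none for SLC37A2. Figures were drawn with matplotlib 3.10.9 in Python 3.11.15.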

Additional observations from a re-analysis of the deposited data

Results flagged for a closer look

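Of 111 sets of 4 libraries (37 genes in 3 groups), 7 had a library whose gap to its neighbour, divided by the range of the set, was above the 95% critical value of Dixon's test. Chance gives about 1 in 20. HK2 was at 166.8 CPM in WT replicate 2 and at 141.5 to 143.8 in the other WT libraries. PFKFB3 was at 10.8 CPM in the same library and at 6.48 to 6.83 in the others. Without WT replicate 2 the shTST calls of HK2 (−0.12, adjusted p = 0.0819) and PFKFB3 (−0.36, adjusted p = 0.056) were lost. SLC2A1 was at 602 CPM in overTST replicate 4 and at 672 to 683 in the other overTST libraries. GPI was at 699 CPM in overTST replicate 1 and at 752 to 763 in the others, and without that library GPI was called higher in overTST (0.13, adjusted p = 0.0417). ALDOA was at 2337 CPM in shTST replicate 3 and at 1933 to 2001 in the others. TPI1 was at 656.5 CPM in overTST replicate 4 and at 626 to 631 in the others. PDK2 was at 26.3 CPM in shTST replicate 1 and at 29.4 to 29.95 in the others.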

How the results depend on the processing

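No member's call changed sign under any alternative tried. In shTST against WT, the genes called ranged from 1513 to 2336 when a library was left out, with 2346 in all libraries, and the lowest value came without shTST replicate 1. Members called lower ranged from 8 to 13, with 8 without WT replicate 4 or without shTST replicate 4. Members called higher were 1 (SLC2A3) with the replicate block and the length-trend offset together. In overTST against WT, members called higher were 7 with upper-quartile scaling, 11 with the length-trend offset and 11 with both the replicate block and that offset, against 4. Over all genes, 54.1%, 49.9% and 50.3% of the calls were higher under these alternatives, against 46.3%. In shTST against overTST, members called higher were 2 with the length-trend offset and 2 with it and the replicate block, and 1 to 2 when a library was left out, against 1. They were 2 without shTST replicate 2 or overTST replicate 4, which added PCK1, without overTST replicate 1, which added SLC2A2, and without overTST replicate 2, which added PFKM. The length-trend offset added SLC2A2. The causes were not tested.

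The replicate numbers do not mark a shared culture in the labels, and the deviations of same-numbered libraries correlated at −0.0544 to 0.0813 over 12 pairs. Such a correlation over all genes cannot show whether these libraries share more than a number. A replicate block gave 2980 genes called in shTST against WT, with 13 members lower. In overTST against WT it gave 5166 genes, with 5 members higher and 7 lower. In shTST against overTST it gave 5232 genes, with 17 members lower. Not every library correlated best with its own number (5 of 12 did). Depth limits LDHB, PDK4 and FBP1, for which no difference was detectable. It also limits the results on HK1, PFKFB1, G6PC and PCK1, which rest on under 112 read counts per library, and on PFKM, with 40 to 124.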

Other observations

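Among 24 genes of the transcriptional control of glucose metabolism, 2 were higher and 6 lower in shTST than in WT, and 1 was higher and 10 lower in overTST. In shTST TXNIP, an arrestin-like protein that limits glucose uptake and responds to glucose, was at a log2 fold change of 0.33 (adjusted p = 0.00262), and its relative ARRDC4 at 0.56 (adjusted p = 0.0172), both higher. CEBPB, a liver transcription factor, and EPAS1, which encodes HIF-2 alpha, were lower there (−0.31 and −0.20, adjusted p = 0.000722 and 0.00968). In overTST MAX was higher (0.26, adjusted p = 0.00333), and HIF1A, which encodes HIF-1 alpha, and MYC, its product a partner of MAX, were lower (−0.46 and −0.38, adjusted p = 2.94e-06 and 2.94e-06). HIF1A was also called lower in shTST (−0.17, adjusted p = 0.0276), a gene named after its values were seen. Of all genes tested 16.1% were called in shTST and 33.9% in overTST.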
